A study of Mus musculus with 2 samples.

Results

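Smooth muscle contractile genes were followed through single-cell RNA-seq of the mouse aorta-gonad-mesonephros region (AGM), the embryonic tissue around the dorsal aorta where the first hematopoietic stem cells arise. The members were 10 of the 31053 genes counted: Acta2, Tagln, Myl9, Cnn1, Myh11, Actg2, Lmod1, Tpm2, Des and Myocd. They were chosen as the contractile proteins of smooth muscle and the coactivator that switches them on, and were measured in every barcode with at least 2000 UMIs (unique molecular identifiers, each counting 1 captured RNA molecule) and under 10% mitochondrial UMIs. There was 1 library of E11 AGM cells from PDGFRB +/+ (WT) mice and 1 from PDGFRB -/- (KO) mice. The KO lacks the receptor PDGFRβ in the whole animal, in a line kept as heterozygotes on a C57BL/6J background. The number of embryos behind each library is not given in the sources used here. With 1 library per genotype there is no replicate, so no difference between the genotypes was tested. Intervals are 95% intervals for counting error only.

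Smooth muscle cells shorten when myosin pulls on actin filaments, and the vessel wall recruits such cells as mural cells, the pericytes and vascular smooth muscle cells that wrap the endothelium. PDGFRβ is the receptor through which mural cells receive the endothelial signal PDGF-B. Many contractile genes carry CArG boxes, to which serum response factor binds together with its partner myocardin, and several are also used early and briefly by skeletal muscle precursors.

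Acta2 (chr19:34241090-34255590, minus strand) encodes the smooth muscle alpha-actin of the thin filament and Actg2 (chr6:83512905-83536265, minus strand) the gamma-actin typical of visceral muscle. Tagln (chr9:45929619-45936058, minus strand) encodes the actin-binding protein transgelin, Cnn1 (chr9:22099216-22109630, plus strand) calponin, Tpm2 (chr4:43514711-43523765, minus strand) a tropomyosin, and Lmod1 (chr1:135324807-135368065, plus strand) leiomodin, which starts new actin filaments. Myh11 (chr16:14194535-14291372, minus strand) encodes the smooth muscle myosin heavy chain and Myl9 (chr2:156775420-156781658, plus strand) its regulatory light chain. Des (chr1:75360329-75368579, plus strand) encodes desmin, an intermediate filament protein of all muscle types, and Myocd (chr11:65176561-65269989, minus strand) encodes myocardin. Positions are those of GENCODE M21 on GRCm38.

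RefSeq promoter sequences were matched for 6 of the 10 members (GRCm38.p6). Each was searched over the 250 bases before its RefSeq start for the CArG box (CC, then 6 bases of A or T, then GG) and for CATTCC, the MCAT motif, on both strands. An exact CArG box was found in 1.47% of all 32851 promoters and a match with up to 1 mismatch in 18.6%. CATTCC was found in 12.6%. Of the members, 3 of 6 had a CArG match with up to 1 mismatch, namely Acta2, Myl9 and Lmod1, and 2 of 6 had CATTCC, namely Acta2 and Lmod1. The 3 stretches below are shown because Myl9 holds the exact CArG box, Lmod1 holds both motifs, and Des holds neither and was also the member whose levels followed the others least. Capitals mark the motif matches, GGAATG being CATTCC read on the opposite strand, and each stretch ends where the first annotated exon begins or before it. They lie at chr2:156775214-156775419 (Myl9), chr1:135324563-135324806 (Lmod1) and chr1:75360042-75360291 (Des), all on the plus strand.
Myl9: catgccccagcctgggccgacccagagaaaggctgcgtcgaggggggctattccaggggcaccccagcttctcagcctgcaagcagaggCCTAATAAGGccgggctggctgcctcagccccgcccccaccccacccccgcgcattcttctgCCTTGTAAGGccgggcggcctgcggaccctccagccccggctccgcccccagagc
Lmod1: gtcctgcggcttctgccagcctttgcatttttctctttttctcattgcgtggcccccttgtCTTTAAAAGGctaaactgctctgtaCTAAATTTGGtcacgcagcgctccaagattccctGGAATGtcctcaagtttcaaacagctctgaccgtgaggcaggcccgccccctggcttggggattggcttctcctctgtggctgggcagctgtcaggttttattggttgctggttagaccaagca
Des: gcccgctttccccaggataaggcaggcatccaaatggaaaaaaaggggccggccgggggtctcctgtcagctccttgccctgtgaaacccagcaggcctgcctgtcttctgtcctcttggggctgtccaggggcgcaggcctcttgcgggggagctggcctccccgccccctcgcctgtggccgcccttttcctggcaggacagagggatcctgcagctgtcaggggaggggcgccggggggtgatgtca
In Myl9 the exact match CCTAATAAGG begins at base -161 from the start site and CCTTGTAAGG at base -99. In Lmod1 the matches begin at -189, -164 and, for CATTCC, -130. Acta2 has CCCTATATGG at -84, CCTTGTTTGG at -34 and GGAATG at -146, all counted from its RefSeq start and all inside the annotated Acta2 gene, which begins farther upstream. None of these motifs was found in this window for Cnn1, Tpm2 and Des. Their correlations with the mean of the members across class sums were unlike, at 0.93, 0.74 and 0.49, and a link to the motifs was not tested. A match is a description of letters and says nothing on binding in these cells.

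The filters kept 8253 WT and 8165 KO cells, with medians of 13321 and 12391 UMIs, and 20 barcodes occurred in both libraries. Pdgfrb stood at 43.1 CPM (a gene's UMIs scaled to a fixed total for each group of cells) in WT and at 7.09 CPM in KO. The sources used here do not say which part of the gene is deleted, so 3′ reads of the remaining transcript cannot be told apart from cells that carry an intact gene. The authors removed KO cells with detected Pdgfrb before their analysis. Such cells were kept here unless stated, and 7364 KO cells remained without them. The X-inactivation RNA Xist was seen at 793 CPM in WT against 0.415 CPM in KO, while 4 Y genes summed to 0.0266 and 163 CPM, so embryo sex differed along with library and genotype and these cannot be told apart. Cells were put into 13 classes by marker genes, none of them a member or Pdgfrb, and 37.9% of WT and 42.5% of KO cells met no class. Free RNA was present in both libraries: barcodes with 100 UMIs or fewer held Acta2 at 426 CPM in WT and at 329 CPM in KO, close to the 532 and 370 CPM of the kept cells.

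Most members were concentrated in the mural-like class, gated on Notch3, Heyl, Rgs5, Kcnj8, Abcc9, Cspg4, Higd1b and Ndufa4l2, of which Higd1b was at or near 0 with 0 UMIs in WT and 1 in KO. This class held 169 WT cells (2.05%) and 123 KO cells (1.51%). The gate itself was met by 558 WT and 420 KO cells. The rest of these showed a larger share of another class's markers, or tied, so other classes also hold cells that met this gate. In WT, Acta2 stood at 6288 CPM (6205 to 6372) in mural-like cells against 395 CPM in all other cells. In KO it stood at 4904 CPM (4824 to 4986) against 277 CPM. Myh11, often taken as the most restricted smooth muscle gene, stood at 213 CPM (198 to 229) in WT and at 216 CPM (200 to 234) in KO mural-like cells, against 4.48 and 4.90 CPM elsewhere.

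As log2 ratios of mural-like over all other cells, Myh11 reached 5.57 in WT and 5.46 in KO, Cnn1 4.42 and 4.94, Lmod1 4.48 and 4.57, Acta2 3.99 and 4.15, Tagln 3.98 and 4.65, Actg2 3.70 and 4.96, and Myl9 2.99 and 3.098. Tpm2 was lower at 1.90 and 1.64. Des was the exception, at 0.07 in WT and -0.75 in KO. Myocd reached 3.52 in WT but 1.24 in KO. Thus 9 of the 10 members were more than 2-fold higher in mural-like cells in each library, where 5.77% of 13887 genes in WT and 5.39% of 13808 genes in KO passed the same line. The summed members were 3.57 higher on the log2 scale in WT and 3.66 higher in KO, and stayed between 3.25 and 3.99 under every alternative tried.

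**Figure D1:**
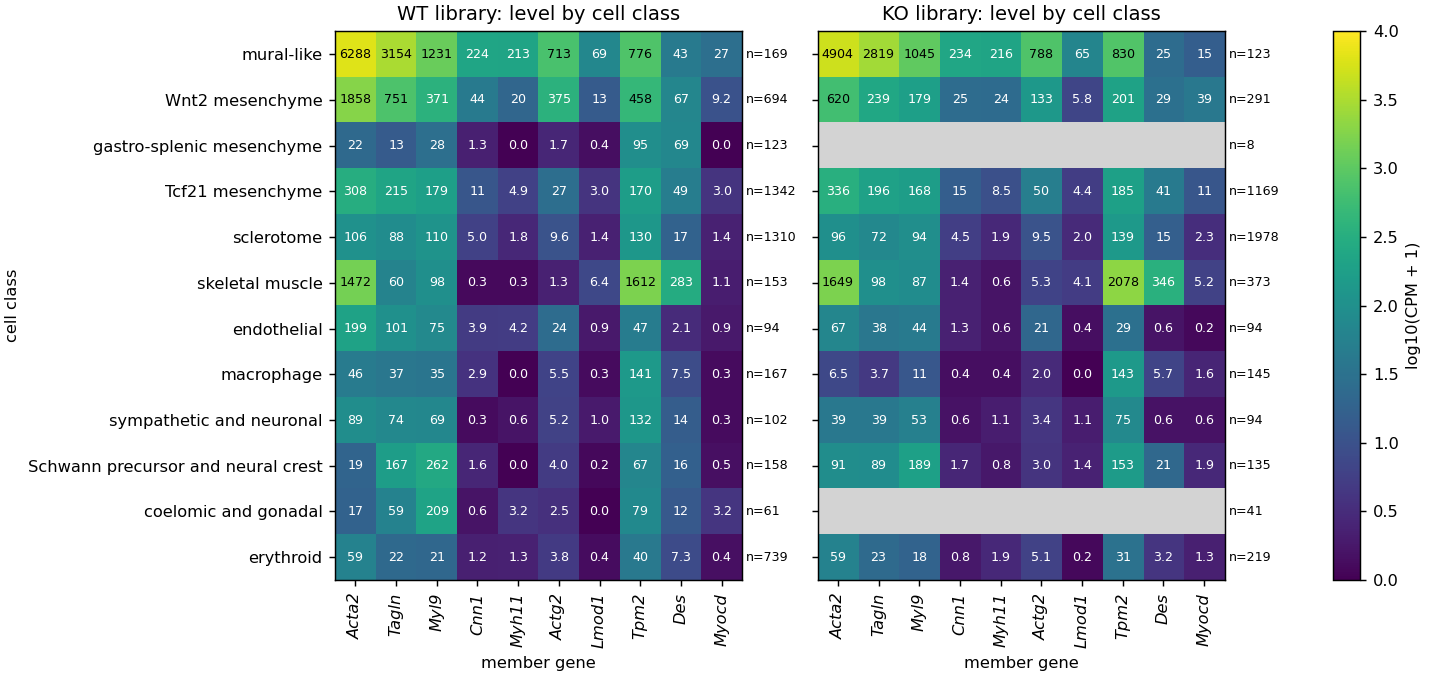
Level of each member in CPM of summed UMIs, coloured by log10 of CPM plus 1, in each marker-gated class of the WT and KO libraries, with classes under 50 cells in grey. Acta2, Tagln, Myh11 and Cnn1 peak in the mural-like class of both libraries, while Tpm2 and Des peak in skeletal muscle.

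Outside the mural-like class the members did not follow the same order of classes. Acta2 in WT was next highest in Wnt2 mesenchyme (1858 CPM, 1837 to 1880), a class gated on Wnt2, Foxf1, Hand1, Hand2, Postn, Tbx4 and Nkx2-3, and then in skeletal muscle precursors (1472 CPM, 1433 to 1511), gated on Myod1, Myog and 6 other markers. Their counting intervals did not overlap, but this order held for summed UMIs only. As means over cells they stood at 1648 and 1674 CPM, and as medians at 334 and 1122 CPM. In KO the order of the sums was turned, with 1649 CPM in skeletal muscle and 620 CPM in Wnt2 mesenchyme. The KO means over cells were 1688 and 647 CPM, so by that measure skeletal muscle came first in both libraries. Tpm2 and Des were highest in skeletal muscle: Tpm2 at 1612 CPM in WT and at 2078 CPM in KO, and Des at 283 and 346 CPM. For Des, mural-like cells ranked behind several mesenchymal classes, with 43.1 CPM (36.5 to 50.6) in WT, overlapping the 48.6 CPM (46.5 to 50.8) of Tcf21 mesenchyme.

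Against all other cells, skeletal muscle precursors were more than 2-fold higher for 3 of 10 members, Acta2, Tpm2 and Des, in both libraries (4.56% of all genes in WT and 4.74% in KO). They were more than 2-fold lower for 5 members in WT, Tagln, Cnn1, Myh11, Actg2 and Myocd, and for 3 in KO, Cnn1, Myh11 and Actg2, against a background of 20.8% and 22.2% of genes. Within this class the cells with a UMI of Myog, the factor of differentiating myocytes, held Acta2 at 1732 CPM in WT against 400.4 CPM in those without, and at 2009 against 428 CPM in KO. Tpm2 (1919 against 351 CPM in WT, 2558 against 450.4 CPM in KO) and Des (330.02 against 90.5 CPM, 418 against 103 CPM) followed the same split. Myl9 did so less, at 99.4 against 93.2 CPM in WT and 94.3 against 61.5 CPM in KO.

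Classes that are not known to contract gave the background. Acta2 stood at 59.1 CPM in WT and at 58.9 CPM in KO erythroid cells, and at 46.0 and 6.496 CPM in macrophages. Endothelial cells held 199 and 66.9 CPM. Schwann precursor and neural crest cells differed from these in Myl9, at 262 CPM in WT and at 189 CPM in KO, and in Tagln, at 167 and 88.7 CPM, with Myh11 at 0 UMIs in WT and 3 in KO. Acta2 levels near those of erythroid cells are not read as expression.

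The share of each member's UMIs that lay in mural-like cells showed how far that small class, as assigned, accounted for it. The mural-like gate was met by 558 WT and 420 KO cells, of which only 169 and 123 were assigned to the class. These shares therefore depend on the class rule and leave out cells that met the gate but went elsewhere. It was highest for Myh11, at 53.2% in WT and 47.7% in KO, and stood between 23.7% and 39.1% for Acta2, Tagln, Cnn1, Actg2 and Lmod1. Myl9 had 16.0% and 15.0%, Tpm2 8.19% and 6.05%, and Des 2.44% and 1.21%. Myocd went from 21.5% in WT to 4.66% in KO. Wnt2 mesenchyme held 55.7% of the Actg2 UMIs in WT and 16.0% in KO, and 36.3% and 8.17% of those of Acta2. Skeletal muscle held 17.0% and 46.4% of Des and 18.1% and 42.5% of Tpm2, with 153 WT and 373 KO cells in that class.

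**Figure D2:**
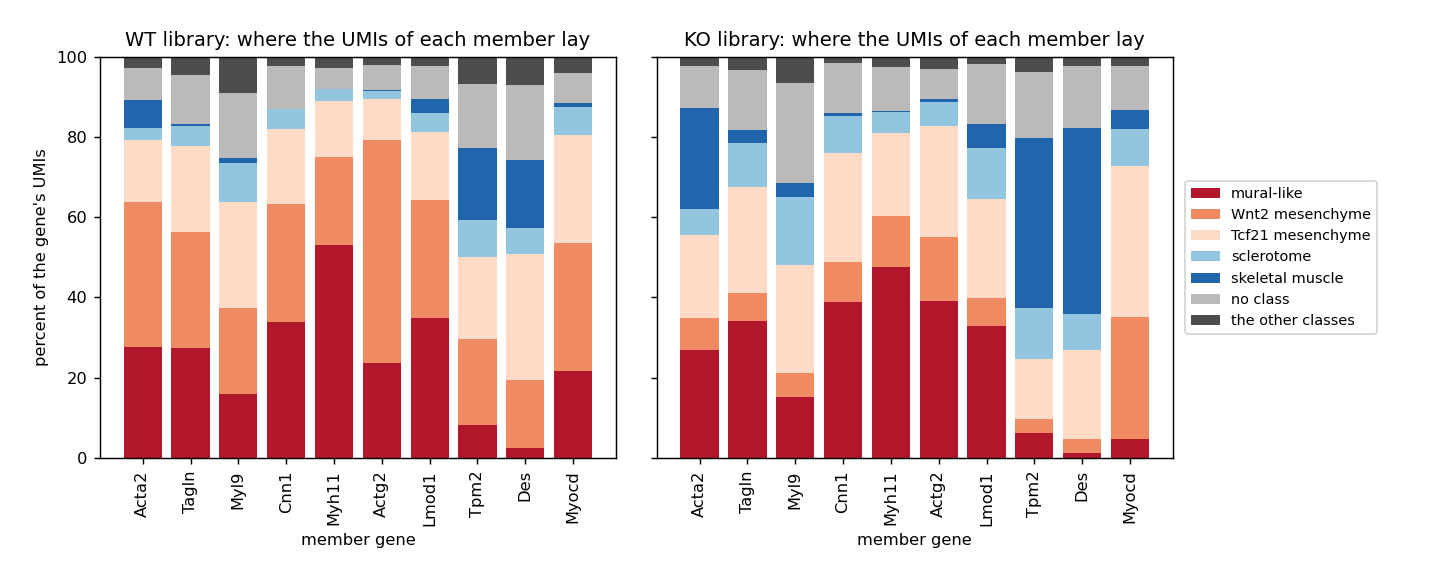
Percent of each member's UMIs found in each class, WT and KO libraries side by side. Mural-like cells hold 53.2% and 47.7% of Myh11 but 2.44% and 1.21% of Des, and the skeletal muscle share of Des and Tpm2 is larger in KO.

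Single mural-like cells differed widely in these genes. After each cell was thinned to 2000 UMIs, the median mural-like cell had UMIs of 4 of the 10 members in both libraries (quartiles 2 and 6), 43.2% of WT and 49.6% of KO cells had 5 or more, and 5.92% and 12.2% had none. No cell had all 10. In erythroid cells, 88.0% and 89.9% had none. Per-cell Acta2 in WT mural-like cells had a median of 4833 CPM and a 90th percentile of 13589 CPM, and the 17 cells with the most Acta2 held 41.3% of its UMIs. In WT Wnt2 mesenchyme the spread was wider: the median cell had 334 CPM, the 70 of 694 cells with the most Acta2 held 75.9% of its UMIs, and the 70 with the most Actg2, counted separately, held 94.4% of its UMIs.

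**Figure D3:**
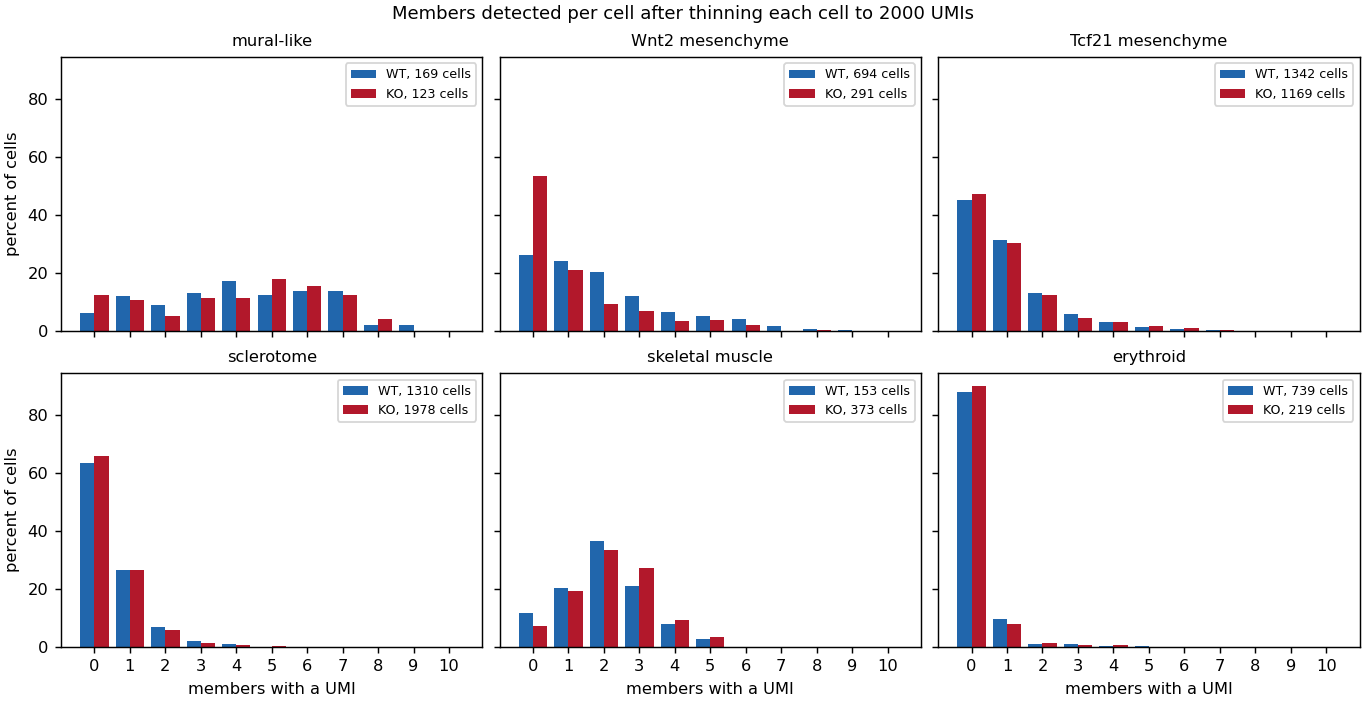
Number of members with a UMI per cell after thinning to 2000 UMIs, as percent of the cells of 6 classes in WT (blue) and KO (red). Mural-like cells spread widely around a median of 4 members in both libraries, and erythroid cells are mostly at 0.

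Within the mural-like class most members were higher in cells with a Myh11 UMI, while Des was not. The 95 WT cells with a Myh11 UMI held Acta2 at 9446 CPM against 1593 CPM in the 74 without, with median depths of 17323 and 14701 UMIs. In KO, 68 cells with Myh11 held 7188 CPM against 966 CPM in the 55 without, with median depths of 20284 and 13800 UMIs. Des did not follow, at 35.3 against 54.7 CPM in WT and 24.7 against 26.5 CPM in KO. The 52 WT cells with a Myocd UMI held Myh11 at 352 CPM against 125 CPM in the other 117, and the 29 KO cells 378 against 162 CPM in the other 94. The cells with a UMI were the deeper ones. With every cell thinned to 2000 UMIs, the correlation over cells of Acta2 with Myh11 was 0.46 in WT and 0.54 in KO, and that of Acta2 with Des -0.059 and 0.055. That of Myocd with Myh11 was 0.10 in WT and -0.050 in KO, and with Actg2 0.16 and -0.045. With Acta2 it was 0.22 and 0.10, and with Tagln 0.19 and 0.14. Lmod1 with Myh11 stood at 0.10 and 0.15. Few cells keep a Myocd UMI at that depth, 4.73% in WT and 6.504% in KO, so these values cannot show whether Myocd follows the other members. Des was sparse as well, with 151 UMIs in WT and 73 in KO mural-like cells and a per-cell median of 0 CPM in both. Its thinned correlations are limited in the same way.

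The study names perivascular subsets by Pdgfrb and Cspg4, which encodes NG2. WT cells were therefore also split by UMIs of these genes into DP (both, 442 cells), PDGFRβ-S (Pdgfrb alone, 2217), NG2-S (Cspg4 alone, 262) and DN (neither, 3903). Cells of the skeletal muscle, endothelial, blood, neuronal, Schwann and epithelial classes were left out of this split. Acta2 was highest in DP at 2041 CPM, followed by 514 CPM in PDGFRβ-S, 392 CPM in NG2-S and 237 CPM in DN. Myh11 ran 51.4, 6.96, 15.3 and 2.12 CPM in that order, so that NG2-S stood above PDGFRβ-S. Des varied less, at 48.9 CPM (45.6 to 52.4) in DP, 42.7 in PDGFRβ-S, 28.2 (23.7 to 33.3) in NG2-S and 38.8 in DN. Median depth ran from 25768 UMIs in DP to 9366 in DN, and a UMI is more easily seen in a deeper cell.

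Between the libraries as a whole, 7 of the 10 members were lower and 3 higher in KO. The share of all genes in each direction was not counted, so this count is not read as a result about the members. Acta2 stood at 532 CPM in WT and at 370.2 CPM in KO, a log2 ratio of -0.52 (-0.54 to -0.51). Tagln went from 269 to 167 CPM (-0.68) and Actg2 from 70.1 to 40.7 CPM (-0.78). Myl9 (-0.35), Cnn1 (-0.34) and Lmod1 (-0.21) differed less, and the intervals of Myh11 (-0.14 to 0.08) and Des (-0.01 to 0.09) held 0. Tpm2 was higher at 278 CPM in KO against 221 CPM in WT (0.33). Myocd was the only member past 2-fold, at 2.97 CPM in WT and at 6.34 CPM in KO (1.09, 0.93 to 1.26). Hence 1 of 10 members was more than 2-fold higher, against 2.14% of 14988 genes, and 0 of 10 lower, against 2.17%. Their median log2 ratio was -0.27, beside 0.06 over all genes.

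Summed, the members stood at 1346 CPM in WT and at 1071 CPM in KO, a log2 ratio of -0.33 (-0.34 to -0.32). In a whole library, fewer cells of a class and less RNA per cell cannot be told apart. The direction turned under 2 alternatives. Among cells with under 5% mitochondrial UMIs it was 0.093, and without cells with a Pdgfrb UMI in either library it was 0.36. The Pdgfrb setting kept 5464 WT and 7364 KO cells, but only 20 WT against 74 KO mural-like cells. In Wnt2 mesenchyme it kept 255 WT and 235 KO cells, from 694 and 291. It thus took out unlike parts of the 2 libraries and is not a like-for-like comparison. Under it the members ran from 0.11 for Actg2 to 2.22 for Myocd. The share of all genes higher in KO under this setting was not counted, so this is not read as a result about the members. Leaving cells with a Pdgfrb UMI out of KO alone gave -0.55 for the sum. With classes weighted to their WT shares, Tpm2 turned to -0.043, Des to -0.36 and Myh11 to 0.27. Myocd kept its direction under 14 of 14 alternatives, of which 1 marker more and 1 marker fewer cannot change a value over all cells.

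Within mural-like cells most members lay closer together between the libraries than over all cells, but Des lay farther apart and Myocd turned its direction. Acta2 was 0.36 lower in KO on the log2 scale (6288 and 4904 CPM), Tagln went from 3154 to 2819 CPM (-0.16) and Myl9 from 1231 to 1045 CPM (-0.24). The myosin heavy chain Myh11 (0.02, -0.13 to 0.18), Cnn1 (0.07, -0.08 to 0.22) and Lmod1 (-0.09, -0.37 to 0.19) had intervals that held 0. Actg2 went from 713 to 788 CPM (0.14) and Tpm2 from 776 to 830.3 CPM (0.10). Des and Myocd, the members with the fewest UMIs there, differed most: Des went from 43.1 to 25.4 CPM (-0.77, -1.19 to -0.35) and Myocd from 27.4 to 14.6 CPM (-0.91, -1.47 to -0.37), on 96 and 42 UMIs. Several directions were not stable. Myocd stood at 0.46 with each cell thinned to 2000 UMIs and 1.46 under 5% mitochondrial UMIs. Thinned, Actg2 stood at -0.012, Tpm2 at -0.003 and Tagln at -0.009. Of 13 alternatives, Acta2, Myl9, Cnn1 and Des kept their sign under 12. Tagln, Actg2 and Myocd did so under 11, Tpm2 under 10, and Myh11 and Lmod1 under 8. No member passed 2-fold in either direction, and 0.522% of 6892 genes did so upward and 0.667% downward. The members' median log2 ratio was -0.13, beside 0.05 over all genes.

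The summed members stood at 12739 CPM in WT and at 10941 CPM in KO mural-like cells (-0.22, -0.24 to -0.20). Under 5% mitochondrial UMIs, where 19 WT and 14 KO cells of this class remained, the sum was higher in KO, at 14985 against 8985 CPM. Members ran from 0.10 for Des to 2.95 for Lmod1 on the log2 scale, and the share of all genes higher there was not counted. In the 150 and 109 cells with 5 to 10%, the sum stood at 13269 CPM in WT and at 10552 CPM in KO. A Pdgfrb UMI was seen in 149 of 169 WT and 49 of 123 KO mural-like cells, and Acta2 was higher in those cells than in the others in both libraries, at 6453 against 4265 CPM in WT and 5848 against 3972 CPM in KO. The cells with a Pdgfrb UMI were also the deeper ones, with medians of 16671 against 11790 UMIs in WT and 21712 against 14903 in KO. Leaving them out of KO alone, as the authors did, gave -0.55 for the sum. Actg2 then stood at -0.34, Cnn1 at -0.26, Myh11 at -0.57 and Tpm2 at -0.13, and Acta2, Tagln, Myl9 and Lmod1 were also lower in KO. This filter left 74 KO mural-like cells and took none from WT, so it is not a like-for-like comparison.

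**Figure D4:**
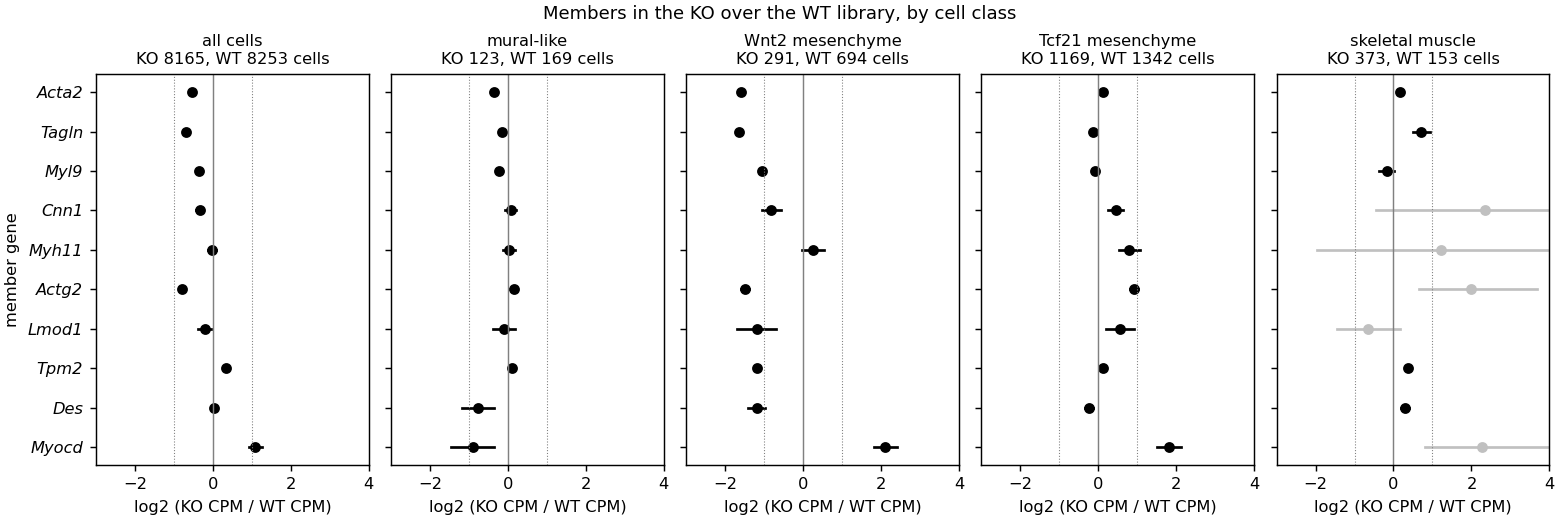
Log2 ratio of KO over WT CPM for each member in all cells and in single classes, with bars for 95% counting intervals, dotted lines at 2-fold and members under 100 UMIs in grey. Points lie near 0 in mural-like cells for most members and below -1 in Wnt2 mesenchyme for 7 of them, where Myocd lies at 2.11.

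Wnt2 mesenchyme, with 694 WT and 291 KO cells, showed the widest gap. Acta2 went from 1858 to 620 CPM (-1.58, -1.63 to -1.54), Tagln from 751 to 239 CPM (-1.65) and Actg2 from 375 to 133 CPM (-1.497). Myl9 (-1.06), Tpm2 (-1.19), Des (-1.20) and Lmod1 (-1.18) were also more than 2-fold lower. Cnn1 was 0.81 lower and Myh11 went from 19.7 to 23.6 CPM (0.26, -0.02 to 0.54). Myocd ran the other way, from 9.15 to 39.4 CPM (2.11, 1.81 to 2.41). In all, 7 of 10 members were more than 2-fold lower, against 7.29% of 10279 genes, and 1 higher, against 2.28%. Among the cells of each library, 9 of 10 members in WT but 4 of 10 in KO (Cnn1, Myh11, Actg2 and Myocd) were more than 2-fold higher in this class than elsewhere, with backgrounds of 5.55% and 2.02%.

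The class held a different mix of cells in the 2 libraries. Its leading genes included Lum, Dcn, Wnt2, Krt8 and Postn in WT and Nkx2-3, Msx1 and Foxf1 in KO. Mab21l2 and Hand1 were among them in both libraries, with Hand1 at 140.9 CPM in WT and at 65.5 CPM in KO. Wnt2 went from 201 to 35.7 CPM while Nkx2-3 went from 11.01 to 93.4 CPM. It was therefore split by these 2 markers, after the values had been seen. Cells with Wnt2 and no Nkx2-3 UMI numbered 534 in WT and 58 in KO, and in them Acta2 went from 2226 to 1080 CPM (-1.04) and the sum from 4726 to 2660 CPM (-0.83). Cnn1 (0.09, -0.25 to 0.42) and Myh11 (0.00, -0.56 to 0.52) had intervals that held 0, and Myocd stood at 10.2 and 4.48 CPM, on 7 UMIs in KO.

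Cells with Nkx2-3 and no Wnt2 UMI numbered 52 in WT and 162 in KO, and here the direction was the opposite for most members. The share of all genes higher in KO in these cells was not counted, so this is not read as a result about the members. Acta2 went from 97.8 to 671 CPM (2.78), Actg2 from 11.2 to 153 CPM (3.77) and Myocd from 4.08 to 75.2 CPM (4.205), on 4 and 244 UMIs. Myh11 had 1 UMI in WT and stood at 35.4 CPM in KO. Lmod1 had no UMI in WT, where 3 counts would be 3.06 CPM, and stood at 5.85 CPM in KO. Des was 1.04 lower in KO. So 244 of the 274 Myocd UMIs of the KO class came from the 162 cells with Nkx2-3 alone. Genotype, embryo sex, library and the mix of cells in the class cannot be told apart here.

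**Figure D5:**
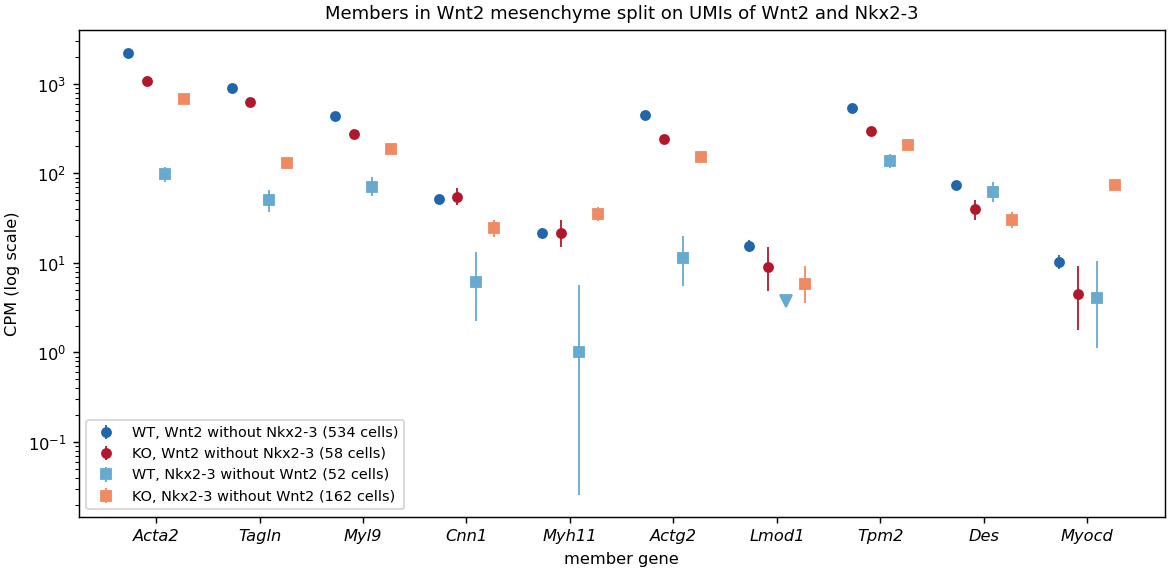
Level of the members in CPM in Wnt2 mesenchyme cells split by UMIs of Wnt2 and Nkx2-3, for WT and KO, on a log axis with 95% counting intervals and a triangle at the upper limit where no UMI was seen. Acta2 stands at 2226 CPM in WT and at 1080 CPM in KO cells with Wnt2 alone, and at 97.8 and 671 CPM in cells with Nkx2-3 alone.

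In Tcf21 mesenchyme, with 1342 WT and 1169 KO cells, the sum differed by 0.07. It went from 1060 to 1766 CPM in cells with under 5% mitochondrial UMIs, and from 952 to 899 CPM in those with 5 to 10%. Acta2 went from 308 to 336 CPM (0.12) and Tagln from 215 to 196 CPM (-0.13). Actg2 (26.6 to 50.1 CPM, 0.92), Myh11 (4.88 to 8.49 CPM, 0.80), Lmod1 (0.56) and Cnn1 (0.44) were higher in KO, and Myocd passed 2-fold at 3.003 and 10.6 CPM (1.82, 1.52 to 2.13). That is 1 of 10 members higher, against 0.962% of genes, and 0 lower, against 1.21%. Nkx2-3 (7.13 to 25.4 CPM) and Mab21l2 (9.23 to 39.2 CPM) were also higher in this KO class, and their part in the result was not tested. In sclerotome, the precursor of vertebral cartilage, no member passed 2-fold (background 1.46% upward and 0.749% downward) and the sum stood at 471 and 436 CPM. In skeletal muscle, Acta2 (0.16), Tpm2 (0.37), Des (0.29) and Tagln (60.1 to 98.0 CPM, 0.70) were higher in KO and Myl9 was 0.18 lower (-0.36 to 0.01). The other 5 members were at or below 6.44 CPM there.

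Other genes of the contractile apparatus were read from a list of 25. In all cells 1 was more than 2-fold higher in KO, Synpo2 (6.23 to 13.2 CPM), and 2 were lower, Kcnmb1 and Crip1 (93.8 to 37.8 CPM). In mural-like cells 18 of the 25 had enough UMIs and none of them passed 2-fold, with Mylk, the kinase that activates smooth muscle myosin, at 84.8 and 87.2 CPM. In Wnt2 mesenchyme 3 of 22 were higher, Mylk (30.1 to 73.9 CPM), Synpo2 (14.7 to 62.6 CPM) and Pgm5, and 5 were lower, Csrp1, Csrp2 (986 to 357 CPM), Tgfb1i1, Nexn and Crip1. In Tcf21 mesenchyme Synpo2 was higher, in sclerotome none of 22 passed, and in skeletal muscle Crip1 was lower.

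Among 21 paralogs of the members, the striated actins stood out in mural-like cells: Actc1 went from 607 to 133 CPM (-2.18) and Acta1 from 140 to 60.1 CPM (-1.22), and none of the 17 with enough UMIs was higher. In Wnt2 mesenchyme Acta1, Actc1, Tagln2 and Vim were more than 2-fold lower and Tagln3 higher. Acta1 and Lmod3 were higher in all cells, and Acta1 in Tcf21 mesenchyme and sclerotome. Of 14 transcriptional regulators, Tcf21 was lower in mural-like cells (30.6 to 14.6 CPM) and in sclerotome. In Wnt2 mesenchyme Foxf1 (54.5 to 136 CPM), Foxf2 and Tcf21 were higher and Gata6 (246 to 56.0 CPM) and Heyl lower. Foxf1 was a gate marker of this class, Tcf21 and Gata6 of Tcf21 mesenchyme, and Heyl of mural-like cells. Levels of these 4 within a class depend in part on the class rule and are not read as a result about regulators. Klf4 was higher in all cells (6.11 to 12.2 CPM), Tcf21 mesenchyme and sclerotome.

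Of 14 striated muscle genes, 11 were more than 2-fold higher in all KO cells, among them Ttn (35.6 to 106 CPM) and Mylpf (82.1 to 198 CPM), with Tnnt1, Tnnt2, Tnnc1, Tnnc2, Myl1, Myl4, Myh3, Myh7 and Neb. Skeletal muscle precursors numbered 153 in WT and 373 in KO, and within that class none of the 12 with enough UMIs passed 2-fold. In sclerotome 9 were higher, all of them among those 11, and in Tcf21 mesenchyme Tnnc1, Mylpf and Ttn were. Whether free RNA or doublets with muscle cells gave these counts was not tested. In Wnt2 mesenchyme Tnni1 was lower. Over all cells the log2 ratios of Tpm2 (0.33), Des (0.04) and Myocd (1.09) were above 0. Those of Des and of Myh11 (-0.03) had intervals that held 0. Tpm2 and Des were the members highest in skeletal muscle, and a link to their ratios was not tested.

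Across the 22 sums of a class in a library with at least 50 cells, Cnn1 and Myh11 were the closest pair (Pearson's r 0.98 on log2 of CPM plus 10), followed by Myh11 with Lmod1, Cnn1 with Actg2 and Cnn1 with Lmod1 (each 0.96) and then Tagln with Myl9 (0.94). Tpm2 and Des went together (0.84), whereas Des with Myh11 reached 0.13 and Des with the mean of the members 0.49. These sums share libraries and depth and are given as a description. Of 12249 other genes, those most like the mean of the members were Pdgfrl (0.95), Adamts15 (0.94), Gpc4, Adamts17, Stbd1, Ankrd1, Gm15867, Jph2, Adamts2 and Fstl3 (0.90). Pdgfrl stood at 27.1 CPM in WT and at 28.8 CPM in KO mural-like cells, and Adamts15 at 31.4 and 31.3 CPM.

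The counts of single members were not shared with close relatives to a degree that could be seen. In the last 500 bases of their transcripts, where 3′ reads fall, no stretch of 50 bases occurred in another gene for 9 members, and for Myocd 1 of 1893 did. Tagln, Des and Lmod1 overlap genes on the opposite strand, of which Pcsk7 beside Tagln had the most UMIs, 1646 in WT and 2129 in KO.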

How the data were processed

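Whole E11 AGMs of WT and KO embryos were profiled with 10x Chromium 3′ single-cell RNA-seq, 1 library per genotype. The deposited files hold raw UMI counts per gene and barcode, which the authors made with Cell Ranger 3.1.0 on mm10 (GRCm38) and left unfiltered for cells. The libraries held 179743201 and 174597654 UMIs.

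Barcodes with at least 2000 UMIs and under 10% mitochondrial UMIs were kept, with no doublet caller. A cell went to the class of whose markers it showed the largest share, given a minimum number (3 of 8 for mural-like cells), and ties were left out. Cells meeting 2 or more classes numbered 1417 in WT and 1103 in KO. UMIs were summed per class and library and divided by the total (CPM), with exact Poisson, binomial or conditional binomial intervals. A gene counted as past 2-fold needed at least 100 UMIs over both sums. Genes named beyond the members were those of listed pathways past 2-fold, the 10 most like the members' mean, and checks of the labels. No test between genotypes was made, since cells are not replicates. Python 3.11.15, numpy 2.4.6, scipy 1.17.1 and pandas 2.3.3 were used, and the ratios were tested on simulated data.

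The members and lists were chosen with earlier results of these data known. The marker minimums and the splits by Wnt2 and Nkx2-3, Myog and mitochondrial share were set after seeing the data. Alternatives covered depth, mitochondrial share, scaling, marker number, Pdgfrb, free RNA and Acta2. Leading genes given for a class were chosen after their values were seen, and a class may hold cells of more than 1 kind.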

Additional observations from a re-analysis of the deposited data

Results flagged for a closer look

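The ratio of KO over WT went in opposite directions in different classes for 8 members, for 7 of them with at least 1 class past 2-fold. The share of all genes that did the same was not counted, so these numbers are not read as a result about the members. With 1 library per genotype the difference between classes was not tested. On the log2 scale Acta2 stood at 0.16 in skeletal muscle and -1.58 in Wnt2 mesenchyme, Tagln at 0.70 and -1.65, Tpm2 at 0.37 and -1.19, and Des at 0.29 and -1.20 in the same classes. Actg2 stood at 0.92 in Tcf21 mesenchyme and -1.497 in Wnt2 mesenchyme, and Lmod1 at 0.56 and -1.18. Myocd stood at 2.11 in Wnt2 mesenchyme and -0.91 in mural-like cells, where it turned to 0.46 with cells thinned to 2000 UMIs and to 1.46 under 5% mitochondrial UMIs. Cnn1, without a class past 2-fold, stood at 0.44 in Tcf21 mesenchyme and -0.81 in Wnt2 mesenchyme. The Wnt2 mesenchyme class held a different mix of cells in the 2 libraries, with Wnt2 at 201 CPM in WT and at 35.7 CPM in KO.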

How the results depend on the processing

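No paired analysis was possible because each genotype has 1 library. Values are log2 ratios of the summed members. KO over WT in all cells (-0.33) kept its sign under 13 of 15 alternatives, in mural-like cells (-0.22) under 14 of 15, and in Wnt2 mesenchyme (-1.41) under 15 of 15. Mural-like over other cells kept its sign under 14 of 14 in WT (3.57) and in KO (3.66). The cause of the shifts was not tested.

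In all cells, the ratio was 0.093 under 5% mitochondrial UMIs. It was 0.36 without cells with a Pdgfrb UMI, which left 20 WT and 74 KO mural-like cells, and -0.55 without those of KO alone. It was -0.34 at a minimum of 1000 UMIs, -0.46 as a mean over cells, -0.39 with median-of-ratios scaling, -0.37 on a total without mitochondrial, globin and member genes, -0.45 thinned, -0.36 less the erythroid level, -0.43 without the 5% deepest cells, -0.22 without Acta2 and, added after seeing the data, -0.38 with classes weighted to WT shares.

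In mural-like cells, it was 0.74 under 5% mitochondrial UMIs, -0.28 with median-of-ratios scaling, -0.14 with 1 marker more, -0.16 with 1 fewer, -0.55 without KO cells with a Pdgfrb UMI, -0.051 without them in both, -0.10 without Acta2 and, added later, -0.35 in cells of only 1 class.

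In Wnt2 mesenchyme, the same settings gave -0.91, -1.49, -1.31, -1.55, -1.34, -0.89, -1.27 and -1.28, and the mean over cells gave -1.22, thinning -1.25, the erythroid level subtracted -1.496 and the deepest cells removed -1.15.

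Mural-like over other cells in WT was 3.55 at a minimum of 1000 UMIs, 3.59 at 5000, 3.32 under 5% mitochondrial UMIs, 3.52 on the reduced total, 3.48 with 1 marker more, 3.37 with 1 fewer, 3.71 without cells with a Pdgfrb UMI, 3.60 thinned, 3.78 less the erythroid level, 3.58 without the deepest cells and 3.25 without Acta2. In KO it was 3.99 under 5% mitochondrial UMIs, 3.78 as a mean over cells, 3.498 with 1 marker fewer, 3.41 without cells with a Pdgfrb UMI, 3.80 thinned, 3.90 less the erythroid level, 3.76 without the deepest cells and 3.35 without Acta2.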
